A study of Mus musculus with 38 samples.

Results

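The interferon-induced and MHC class I genes described here are B2m, H2-D1, H2-K1, Ifi27, Ifit3, Isg15, Stat2, Irf7 and Irf9. They are 9 of the 57010 gene IDs of the count table and were named by symbol, with no threshold on a measured difference. A gene with a mean under 10 counts was to be reported as too low, and all 9 passed. Mean raw counts per library were 1197 for B2m, 699.8 for H2-D1, 430.6 for H2-K1, 288 for Ifi27, 158.6 for Ifit3, 21.95 for Isg15, 484.2 for Stat2, 35.47 for Irf7 and 174.3 for Irf9. Isg15 ranged from 6 to 43 counts and was under 10 in 2 libraries, so its level was the least precise of the 9. On GRCm38, whose GENCODE annotation supplied the symbols, B2m lies at chr2:122147686-122153083, H2-D1 at chr17:35262730-35267499, H2-K1 at chr17:33996017-34000347, Ifi27 at chr12:103434211-103440239 and Ifit3 at chr19:34583531-34588731. Isg15 lies at chr4:156199424-156200818, Stat2 at chr10:128270559-128292849, Irf7 at chr7:141262706-141266481 and Irf9 at chr14:55603571-55610030, and the counts are over their exons.

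The study measured mRNA of mouse medial prefrontal cortex by bulk RNA sequencing, with 1 library per animal and 38 libraries. Mutant mice carried SSTCre, in which the somatostatin promoter drives Cre recombinase, together with a conditional allele that this Cre acts on. Control mice carried SSTCre alone, so Cre was present in every animal. Mice of both genotypes went through 21 days of chronic variable stress (CVS), a schedule of changing stressors, or were left without stress (NS), and tissue of stressed mice was taken 24 hours after the last stressor. The male groups were mutant CVS (4 mice), mutant NS (3), control CVS (6) and control NS (5), and the same female groups held 5 mice each. Mouse background strain and age were not given in the sources used here. In bulk tissue, fewer cells of a type and less RNA per cell cannot be told apart, and a change in somatostatin neurons alone is diluted by all other cells.

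Cells that sense a virus or stray nucleic acid release type I interferon, whose receptor activates JAK kinases. These phosphorylate STAT2, which joins IRF9 in a complex that binds interferon-stimulated response elements (ISREs) and switches on effector genes such as Isg15 and Ifit3, while IRF7 amplifies interferon production itself. MHC class I, a heavy chain such as H2-D1 or H2-K1 with the light chain B2m, shows peptides from inside the cell to T cells. In brain it is expressed mainly by endothelial cells and microglia, and in neurons it is also known for a role in synapse refinement.

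Promoter sequence shows which of these genes carry an ISRE core close to their start. The ISRE core, GAAA followed by any pair of bases and GAAA again, was searched on both strands in the 250 bases before each gene's start, from RefSeq (GRCm38.p6), another build than that of the counts. It lay in the promoter of 4 of the 8 genes with a promoter there: B2m, Ifit3, Isg15 and Stat2. H2-D1, H2-K1, Irf7 and Irf9 had no match at any annotated start. The 4 stretches with a match are printed 5′ to 3′ on the gene's own strand, each match in capitals.
B2m: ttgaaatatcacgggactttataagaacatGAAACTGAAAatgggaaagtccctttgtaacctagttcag
Ifit3: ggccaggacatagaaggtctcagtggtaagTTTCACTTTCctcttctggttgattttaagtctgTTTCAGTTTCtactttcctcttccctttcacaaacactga
Isg15: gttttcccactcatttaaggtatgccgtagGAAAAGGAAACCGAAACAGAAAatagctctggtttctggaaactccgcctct
Stat2: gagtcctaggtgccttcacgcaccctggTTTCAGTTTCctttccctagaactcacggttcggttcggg
The B2m stretch is chr2:122147518-122147587 on the plus strand, and its match begins 139 bases before the start. The Ifit3 stretch is chr19:34583343-34583446 on the plus strand and holds 2 matches on the opposite strand, which appear here as their reverse complement, the first of which begins 156 bases before the start. The Isg15 stretch is chr4:156200845-156200926 on the minus strand and holds 3 overlapping matches, the first beginning 78 bases before the start. The Stat2 stretch is chr10:128270248-128270315 on the plus strand, and its match, on the opposite strand, begins 222 bases before the start. The core lay in this window in 3.46% of all 27025 genes, and of 52 listed interferon-stimulated genes 23 (44.2%) had it. The palindromic interferon-gamma activated site TTCNNNGAA lay in 8.13% of all genes' windows, in 10 of the 52 listed genes (19.2%) and in 0 of the 8. A match describes these letters only, and no binding was measured.

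The libraries held between 17.64 and 27.51 Mcounts (mean 21.06 ± 2.275, SD, n = 38; 1 Mcount is 1000000 counts). The tissue carried its labelled identity: the cortical glutamatergic markers summed to group means of 2180 to 2340 CPM (counts scaled to a library total of 1000000), and the 7 lymphocyte markers to 0.0842 to 0.198 CPM. Of the 38 libraries 3 had Cdhr1, an olfactory bulb mitral cell gene, above 10 CPM: male mutant NS replicates 2 and 3 and male control CVS replicate 1. The labels give no batch, and all libraries of a sex may have been handled together, so sex and cohort cannot be told apart. The ID ENSMUSG00000119584, which the name table gives no symbol, took 0.0637% to 0.124% of counts in the male groups and 4.80% to 6.55% in the female groups.

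Every p-value measures the spread between mice of a group, since each library is 1 animal. Levels per kilobase of exon, over all 38 libraries, put the class I light chain far above the rest. B2m stood at 65.9 ± 4.74 CPM per kilobase (SD, n = 38), H2-D1 at 12.8 ± 1.27 and H2-K1 at 6.94 ± 0.996. Ifi27, a small hydrophobic interferon-induced protein, stood at 9.33 ± 1.21, and Ifit3, a partner of RNA-binding IFIT proteins, at 4.30 ± 0.734 CPM per kilobase. By this measure the transcription factors were lower, with Stat2 at 3.86 ± 0.436, Irf9 at 1.53 ± 0.310 and Irf7 at 0.438 ± 0.181 CPM per kilobase. The length used is the union of all annotated exons. For Irf7 it is 3776 bases, the full span of the gene, and for Irf9 5386 bases. Such lengths lower the values per kilobase, so this order depends on the annotation. In raw counts Irf9 (mean 174.3) stood above Ifit3 (158.6). Isg15, a ubiquitin-like protein attached to other proteins, stood at 1.36 ± 0.515. Over all 38 libraries the relative spread was widest in the genes with fewest counts: the SD was 41.3% of the mean for Irf7 and 37.9% for Isg15, against 7.19% for B2m. These SDs take both sexes together, so they include the difference between the sexes given below. Classical class I genes have near-identical relatives, and Ifit3 has a close copy in Ifit3b, so their counts carry the uncertainty of how shared reads were assigned. Irf7 shares 45 exon bases with Phrf1 on the opposite strand, and Irf9 shares 123 with Rnf31 on the same strand. Ordered by group mean, neighbouring groups differed by less than the larger of their SDs for every gene, except for Stat2, whose 4 male groups (24.9 to 25.5 CPM) stood clear of its 4 female groups (20.6 to 21.4 CPM).

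**Figure D1:**
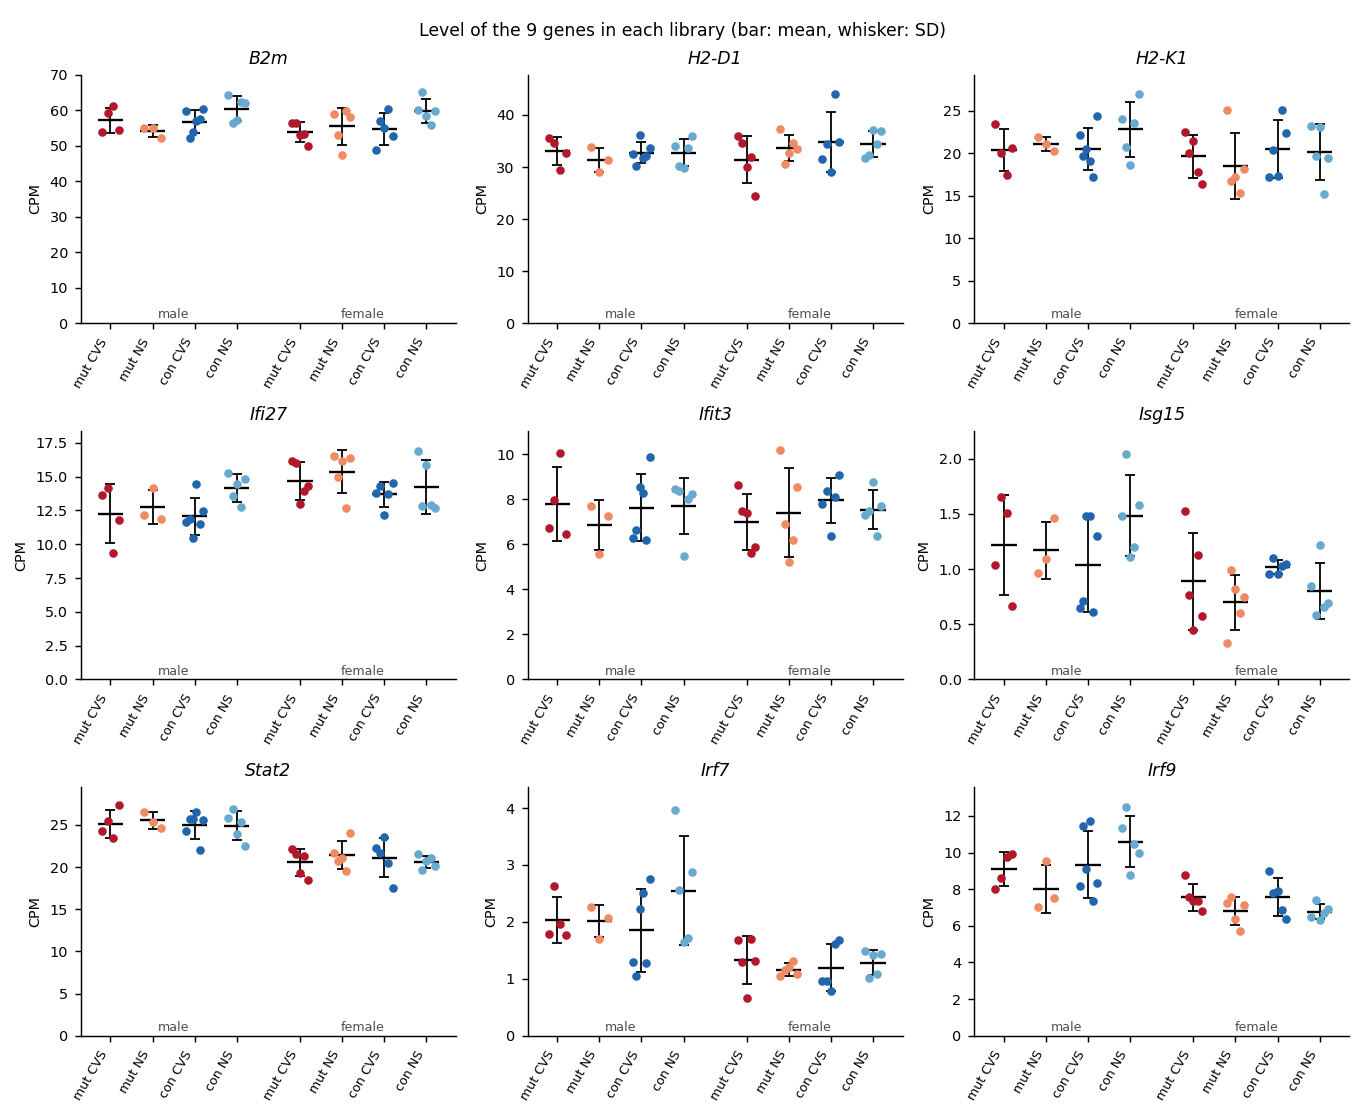
CPM of each of the 9 genes in each of the 38 libraries, by group (mut, mutant; con, control), with the mean as a bar and the SD as a whisker; every axis starts at 0. Groups of 1 sex overlap for nearly every gene, while Stat2, Irf9, Irf7 and Isg15 sit higher in the 18 male libraries than in most of the 20 female ones.

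Neither stress nor genotype moved any of the 9 genes past the threshold. The edgeR quasi-likelihood test, adjusted over all genes tested, called 0 of 9 at an adjusted p under 0.05 in all 15 comparisons of stress, genotype, their interaction and the sex difference of these, and so did DESeq2 and limma voom. These comparisons called few genes of any kind. Stress in male controls called 0.0116% of 17212 genes, stress in male mutants 0%, genotype without stress in males 0.0174%, genotype under stress in males 0.0523% and the interaction in males 0%. In females 0% of 16435 genes were called for stress in controls, stress in mutants and the interaction, 0.128% for genotype without stress and 0.0243% for genotype under stress. Pooled over all 38 libraries, stress called 0.017% of 17671 genes and genotype 1.09%, and the sex differences called 0%. The absence of calls among 9 genes is therefore near what the other genes showed. In simulated counts 99% of 1.5-fold changes were recovered for stress in male controls and 100% for stress in female controls. The false calls were 16 and 9. The simulation gave every gene the same spread and changed 200 genes. Its recovery does not carry over to genes with a wider spread, or to comparisons with few calls. Recovery at counts as low as those of Isg15 and Irf7 was not tested. The SEs of Isg15 and Irf7, 0.273 and 0.246 for stress in male controls, were wider than those of the other 7 genes. Those of Ifit3 (0.141) and Irf9 (0.118) came next. A 1.5-fold change in any of these genes, Isg15 and Irf7 above all, could therefore have been missed.

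Of the class I genes, B2m had the smallest p, between genotypes without stress. In males it was 55.2, 55.1 and 52.2 CPM in mutant NS mice, against 64.4, 56.4, 57.4, 62.3 and 62.1 CPM in control NS mice. All 3 mutants lay below all 5 controls. This was the 1 case without overlap among the 9 genes in the 8 comparisons of single groups. How many of all genes separate like this in groups of 3 and 5 mice was not counted, so the case carries no weight of its own. The log2 fold change was -0.16 ± 0.0607 (SE), with an unadjusted p of 0.0113 and an adjusted p of 0.71 in the edgeR test. In females B2m was 59.0, 53.2, 47.3, 59.8 and 58.1 CPM in mutant NS mice, against 60, 65.2, 58.4, 55.8 and 59.8 CPM in control NS mice. All 5 mutants were below the control mean of 59.9 CPM, but the groups overlapped (log2 fold change -0.11 ± 0.0596, adjusted p = 0.684). Pooled over sex and stress, the genotype difference of B2m was -0.07 with a 95% interval of -0.13 to -0.01 (adjusted p = 0.333), so a fall of more than 0.13 lies outside that interval.

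Under stress the genotypes did not separate for B2m. The male mean was 57.2 ± 3.59 CPM in mutant CVS mice (SD, n = 4) and 56.8 ± 3.18 CPM in control CVS mice (n = 6), and the female mean 53.9 ± 2.72 CPM in mutant CVS mice and 54.8 ± 4.43 CPM in control CVS mice (n = 5 each). Set against the NS means of 54.2 ± 1.68 CPM in male mutants and 60.5 ± 3.44 CPM in male controls, the stress difference had opposite signs in the male genotypes. It was 0.08 ± 0.0635 in mutants and -0.10 ± 0.0498 in controls on the log2 scale, and the test of that difference gave 0.17 ± 0.0807 (adjusted p = 0.995). In female mutants the stress difference of B2m was -0.04 ± 0.0598 (adjusted p = 0.915), and in female controls -0.12 ± 0.0595 (adjusted p = 0.553).

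The heavy chains did not follow B2m gene for gene. H2-D1 averaged 33.1 ± 2.75 CPM in male mutant CVS, 31.4 ± 2.37 in male mutant NS, 32.7 ± 2.05 in male control CVS and 32.8 ± 2.65 CPM in male control NS mice. In females it averaged 31.4 ± 4.53 CPM in mutant CVS, 33.7 ± 2.47 in mutant NS, 34.8 ± 5.71 in control CVS and 34.5 ± 2.51 CPM in control NS mice. Its log2 differences between single groups lay between -0.15 (genotype under stress in females) and 0.07 (stress in male mutants). The lowest H2-D1 value of the series, 24.5 CPM, and the highest, 44.1 CPM, came from a mutant and a control female, both stressed.

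H2-K1 averaged 20.4 ± 2.45 CPM in male mutant CVS, 21.1 ± 0.816 in male mutant NS, 20.5 ± 2.49 in male control CVS and 22.8 ± 3.20 CPM in male control NS mice. In females the means were 19.6 ± 2.52 CPM in mutant CVS, 18.5 ± 3.84 in mutant NS, 20.5 ± 3.39 in control CVS and 20.1 ± 3.30 CPM in control NS mice. Its smallest p was for stress in male controls, with a log2 fold change of -0.16 ± 0.0907 (adjusted p = 0.736) and 5 of 6 stressed mice below the unstressed mean.

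Among the effectors, Ifi27 had the smallest p for stress in male controls. Its level was 10.4 CPM at the lowest, 11.8 at the median and 14.5 at the highest in male control CVS mice, against 15.3, 13.6, 14.5, 12.7 and 14.8 CPM in male control NS mice. Of the 6 stressed mice 5 lay below the unstressed mean of 14.2 CPM, and the groups overlapped. The log2 fold change was -0.24 ± 0.0962 (unadjusted p = 0.0207 and adjusted p = 0.619, edgeR). In male mutants it was -0.06 ± 0.123, with 12.2 ± 2.17 CPM in mutant CVS and 12.7 ± 1.25 CPM in mutant NS mice. In females Ifi27 averaged 14.7 ± 1.38 CPM in mutant CVS, 15.4 ± 1.61 in mutant NS, 13.7 ± 0.931 in control CVS and 14.2 ± 2.0 CPM in control NS mice. Pooled over both sexes and genotypes the stress difference was -0.10 ± 0.0508 (adjusted p = 0.532).

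Ifit3 had no p under 0.05 in any comparison. Its means were 7.79 ± 1.63 CPM in male mutant CVS, 6.85 ± 1.12 in male mutant NS, 7.63 ± 1.49 in male control CVS and 7.70 ± 1.26 CPM in male control NS mice. In females they were 7.0 ± 1.25 CPM in mutant CVS, 7.41 ± 1.97 in mutant NS, 7.95 ± 0.998 in control CVS and 7.53 ± 0.867 CPM in control NS mice. The pooled log2 difference was 0.04 ± 0.0811 for stress and -0.09 ± 0.0811 for genotype.

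Isg15 had wide intervals at its low counts. In males its level was 0.613 CPM at the lowest, 1.00 at the median and 1.48 at the highest in control CVS mice, against 1.48, 2.04, 1.11, 1.20 and 1.58 CPM in control NS mice. All 6 stressed mice lay below the unstressed mean of 1.48 CPM, with overlap. The log2 fold change was -0.50 with a 95% interval of -1.06 to 0.05 (adjusted p = 0.712). In females the sign was the other way: 0.959, 1.10, 0.956, 1.03 and 1.05 CPM in control CVS mice, against 0.851, 0.584, 1.22, 0.655 and 0.691 CPM in control NS mice, for a log2 fold change of 0.35 ± 0.309 (adjusted p = 0.79). The difference of the male and female stress effects in controls was -0.85 ± 0.415 (adjusted p = 0.684). In male mutants Isg15 averaged 1.22 ± 0.45 CPM in CVS and 1.17 ± 0.257 CPM in NS mice (log2 fold change 0.06 ± 0.351). In female mutants it averaged 0.888 ± 0.44 CPM in CVS and 0.699 ± 0.249 CPM in NS mice (0.35 ± 0.320). The same difference of stress effects in mutants was -0.29 ± 0.477 (unadjusted p = 0.548, edgeR). Pooled, the genotype difference was -0.12 ± 0.158 (adjusted p = 0.868).

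Of the regulators, Stat2 was the steadiest. Its male means were 25.1 ± 1.70 CPM in mutant CVS, 25.5 ± 0.973 in mutant NS, 25 ± 1.62 in control CVS and 24.9 ± 1.71 CPM in control NS mice. Its female means were 20.6 ± 1.56 CPM in mutant CVS, 21.4 ± 1.66 in mutant NS, 21.1 ± 2.30 in control CVS and 20.6 ± 0.756 CPM in control NS mice. Within a sex the stress and genotype differences of Stat2 lay between -0.06 and 0.06 on the log2 scale, and the pooled 95% intervals were -0.08 to 0.06 for stress and -0.05 to 0.09 for genotype.

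Irf9, the DNA-binding partner of STAT2, had the smallest p of the 9 genes in these comparisons, for genotype without stress in males. It was 7.04, 9.52 and 7.50 CPM in mutant NS mice, against 11.3, 12.5, 8.77, 10.4 and 9.96 CPM in control NS mice. All 3 mutants were below the control mean of 10.6 CPM, although the highest mutant exceeded the lowest control. The log2 fold change was -0.40 ± 0.146, with an unadjusted p of 0.0097 and an adjusted p of 0.709 in the edgeR test. The same contrast in females gave 6.81 ± 0.750 CPM in mutant NS and 6.77 ± 0.407 CPM in control NS mice (n = 5 each; log2 fold change 0.01 ± 0.111), and the test of the sex difference gave -0.41 ± 0.180 (adjusted p = 0.999). Leaving out 1 male mutant NS mouse moved the male value to -0.32 without replicate 1 (adjusted p = 0.849), -0.55 without replicate 2 (0.297) and -0.36 without replicate 3 (1), where replicates 2 and 3 are those with high Cdhr1. Without all 3 high-Cdhr1 libraries, which leaves 1 male mutant NS mouse, it was -0.59 for Irf9 (adjusted p = 0.696) and -0.14 for B2m (adjusted p = 0.907). These p rest on the spread of the other male groups, which the lone mouse is assumed to share.

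Irf7, the factor that amplifies interferon production, was 1.04 CPM at the lowest, 1.76 at the median and 2.76 at the highest in male control CVS mice. In male control NS mice it was 3.96, 2.56, 1.65, 1.71 and 2.87 CPM. Of the 6 stressed mice 5 were below the unstressed mean of 2.55 CPM, a mean that 1 mouse at 3.96 CPM raised. The log2 fold change was -0.46 with a 95% interval of -0.96 to 0.05 (adjusted p = 0.712). In the other male groups Irf7 averaged 2.03 ± 0.408 CPM in mutant CVS and 2.01 ± 0.284 CPM in mutant NS mice. Female means were 1.33 ± 0.417 CPM in mutant CVS, 1.16 ± 0.109 in mutant NS, 1.20 ± 0.413 in control CVS and 1.29 ± 0.219 CPM in control NS mice.

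**Figure D2:**
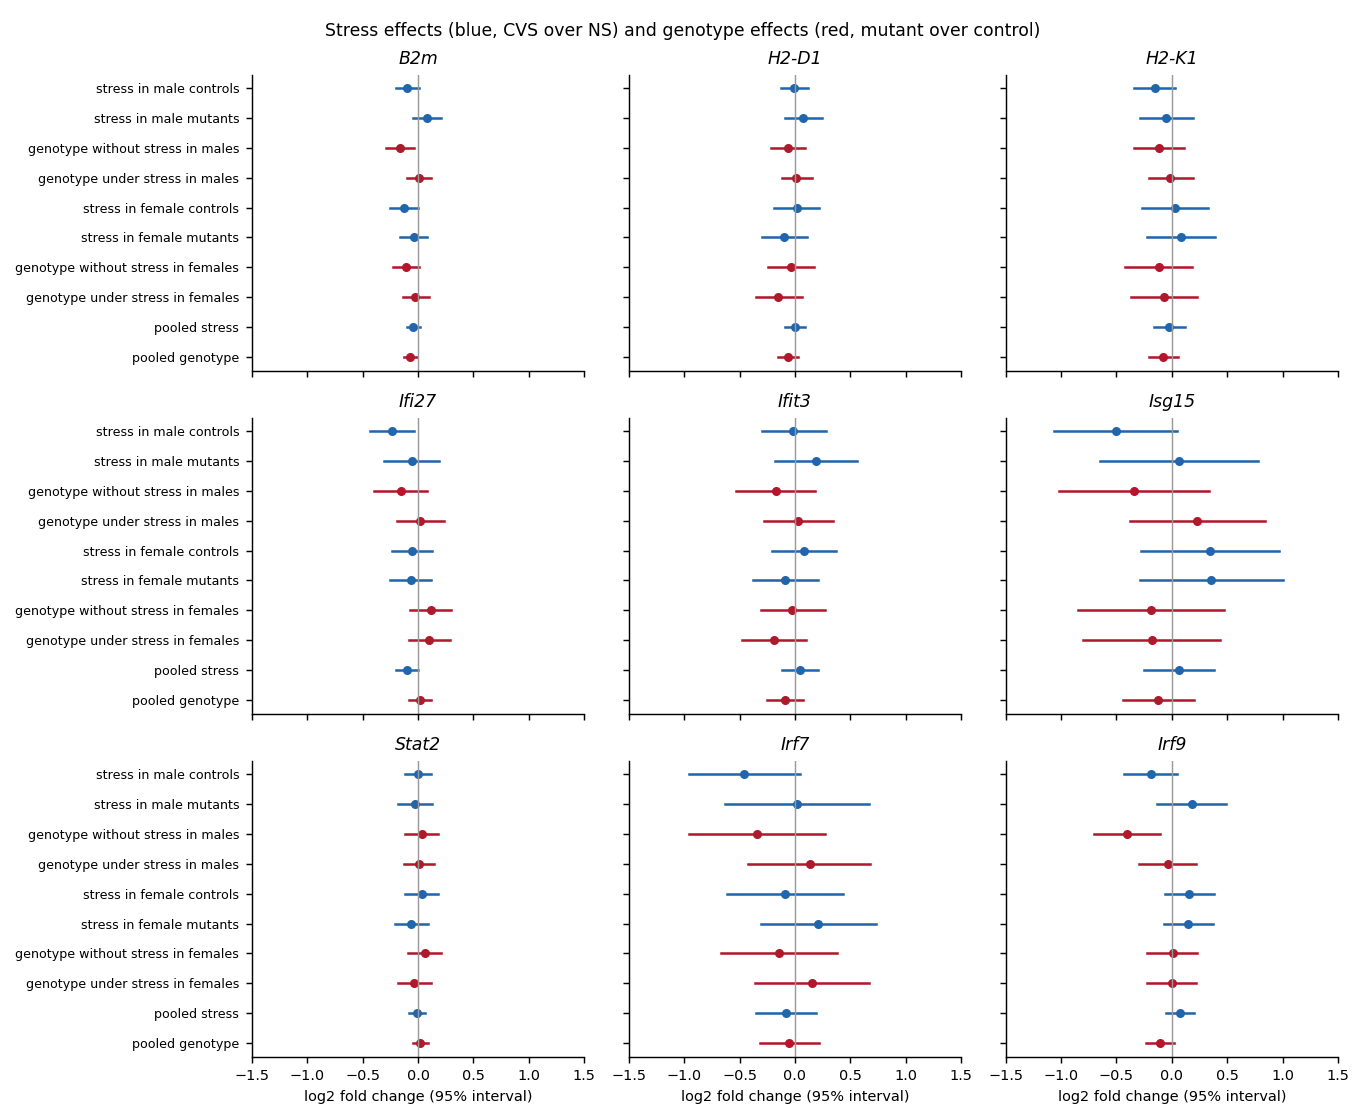
Log2 fold change (point) and 95% interval (line) of each gene for stress (blue, CVS over NS) and genotype (red, mutant over control) within each sex and pooled; the vertical line marks 0. Intervals are narrow for B2m and Stat2 and wide for Isg15 and Irf7, and nearly all of them cross 0.

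The signs of the 9 genes differed between contrasts. For stress in male controls 8 of 9 log2 fold changes were negative (median -0.155; 6 to 9 negative and -0.22 to -0.09 with 1 library left out), against an all-gene median near 0 with 50.1% positive. For genotype without stress in males 8 of 9 were also negative (median -0.164). These contrasts share the male control NS mice, in which 5 of the 9 genes (B2m, H2-K1, Isg15, Irf7 and Irf9) had the highest mean of the 8 groups, so their signs are not separate evidence. The other male contrasts ran the other way, with 6 of 9 positive for stress in mutants (median 0.065) and 7 of 9 for genotype under stress (median 0.013). For stress in female controls 6 of 9 were positive (median 0.032), and leaving out 1 library moved that median between -0.06 and 0.07. The unadjusted p was under 0.05 for 1 of 9 genes for stress in male controls, where 7.39% of all genes were under it, and for 2 of 9 for genotype without stress in males (6.13% of all genes). It was under 0.05 for 1 of 9 each for the interaction in males (4.18% of all genes), stress in female controls (8.72%), pooled stress (9.37%), pooled genotype (11.2%) and the sex difference of the genotype effect (4.12%), and for 2 of 9 for the sex difference of the stress effect in controls (7.19%). With 9 genes, 1 under 0.05 is near these shares. It was under 0.05 for 0 of 9 in the other comparisons.

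The wider pathway was as quiet. A list of 69 further interferon-stimulated genes had 60 tested in males, 54 in females and 64 over all libraries. Stress in male controls called 0 of 60, with 43 negative and a median of -0.128, and leaving out single libraries moved the negative count between 34 and 48. The smallest p values there were those of Ly6e (-0.13 ± 0.0363, adjusted p = 0.415) and Irgm2, an immunity-related GTPase (-0.43 ± 0.154, adjusted p = 0.571). Of the 14 genes for peptide supply and class I loading, such as the immunoproteasome subunit Psmb8 and the tapasin relative Tapbpl, 13 were negative for stress in male controls (median -0.161) and 0 were called. Psmb8 was at -0.63 ± 0.200 (adjusted p = 0.446) and Tapbpl at -0.28 ± 0.0967 (adjusted p = 0.54). For genotype under stress in males all 14 were positive (median 0.135), again with 0 called. Both contrasts use the male control CVS mice. For stress in female controls 7 of the 14 were positive and 7 negative.

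Among all these lists only Irgm2 and Psme1, a subunit of the proteasome activator PA28, passed the threshold in a stress or genotype comparison, both for pooled genotype, in the edgeR test. On GRCm38 Irgm2 lies at chr11:58199618-58222782 and Psme1 at chr14:55578123-55581529. Whether either is linked to the conditional allele was not tested. Irgm2 averaged 2.83 ± 0.573 CPM in the 17 mutants and 3.71 ± 1.04 CPM in the 21 controls and fell by 0.37 ± 0.0925 on the log2 scale (SE, adjusted p = 0.0267). Its lowest group mean was 2.57 ± 0.40 CPM in male mutant NS mice (2.13 to 2.92). Its highest was 4.95 ± 1.38 CPM in male control NS mice (3.61 to 7.18). These groups did not overlap, but they are the extremes of all groups, and how many genes separate like this was not counted. In stressed males the mean was 3.08 CPM in mutants against 3.67 CPM in controls. In females it was 2.93 against 3.22 CPM without stress and 2.7 against 3.0 CPM under stress. Each of these other pairs overlapped, so the gap was widest in unstressed males. For genotype without stress in males alone the log2 fold change of Irgm2 was -0.95 ± 0.199 (adjusted p = 0.201). There Irgm2 was called with DESeq2 (adjusted p = 0.0215) and with no filter on low counts (adjusted p = 0.00933). Psme1 averaged 27.8 ± 1.5 CPM in mutants and 25.3 ± 2.08 CPM in controls and rose by 0.13 ± 0.0339 (adjusted p = 0.0489). Without the 3 libraries with high Cdhr1 neither was called, at adjusted p = 0.149 for Irgm2 and 0.166 for Psme1. Leaving out single libraries ended the call of Irgm2 in 2 of 38 refits, without male mutant NS replicate 2 (adjusted p = 0.0566) and without female control CVS replicate 4 (adjusted p = 0.0511), and kept that of Psme1 in only 11 of 38 (adjusted p between 0.022 and 0.0858).

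The other lists gave no call for stress or genotype. They were 16 other class I genes, 21 interferon receptor and signalling genes, 18 nucleic acid sensors and interferons, and 7 class II genes. In pooled genotype the 2 smallest p values among the class I genes were those of the nonclassical H2-T22 (-0.11 ± 0.0435, adjusted p = 0.296) and H2-T23 (-0.07 ± 0.0512, adjusted p = 0.712). Among the signalling genes they were those of the transcription factor Stat3 (-0.06 ± 0.0278, adjusted p = 0.385) and the phosphatase Ptpn11 (-0.04 ± 0.020, adjusted p = 0.421). Among the sensors they were those of the DNA receptor Tlr9 (-0.14 ± 0.130, adjusted p = 0.765) and its adaptor Myd88 (0.07 ± 0.0687, adjusted p = 0.807), and among class II genes those of H2-Ab1 (0.23 ± 0.154, adjusted p = 0.639) and H2-Aa (0.20 ± 0.140, adjusted p = 0.671). Of the sensors and interferons 11 of 18 had enough counts to be tested, and no interferon gene was among them.

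The clearest contrast among the 9 genes was between the sexes, a comparison added after seeing the data, and it cannot be told apart from cohort. Against a background in which 47.1% of 17671 genes were called, 5 of 9 were called, 4 higher and 1 lower in males, so the share itself is near the background. Irf7 was 1.04 CPM at the lowest, 2.01 at the median and 3.96 at the highest in males, against 0.667, 1.25 and 1.69 CPM in females. Of the 18 males 14 were above the highest female, and the fold was 1.70 (log2 fold change 0.75 ± 0.134, adjusted p = 7.51e-06). Stat2 was 22.1 CPM at the lowest, 25.4 at the median and 27.3 at the highest in males, against 17.5, 21.1 and 24.1 CPM in females. All 18 males were above the female mean, with a log2 fold change of 0.26 ± 0.0356 (adjusted p = 2.27e-08).

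Irf9 ranged from 7.04 to 12.5 CPM in males (median 9.30), against 5.72 to 9.01 CPM in females (median 7.2), and 17 of 18 males were above the female mean. Its log2 fold change was 0.36 ± 0.0613 (adjusted p = 2.4e-06). Isg15 ranged from 0.613 to 2.04 CPM in males (median 1.25), against 0.330 to 1.53 CPM in females (median 0.836), with a log2 fold change of 0.52 ± 0.158 (adjusted p = 0.00543). Stat2 and Irf9, which bind the ISRE together, the amplifier Irf7 and the effector Isg15 were thus higher in males. Ifi27 went the other way: it ranged from 9.37 to 15.3 CPM in males (median 12.6), against 12.1 to 16.9 CPM in females (median 14.3), with a log2 fold change of -0.18 ± 0.0509 (adjusted p = 0.00274).

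The class I genes and Ifit3 were not called between the sexes. The log2 fold changes were 0.03 ± 0.0300 for B2m, -0.05 ± 0.0450 for H2-D1, 0.11 ± 0.0671 for H2-K1 and 0.01 ± 0.0810 for Ifit3, with adjusted p of 0.441, 0.389, 0.198 and 0.961. The 95% interval of B2m, -0.03 to 0.09, holds no change as large as that of Stat2. Of these 4 genes H2-K1 alone was called in any of 45 other settings, with 1 surrogate variable in the model (adjusted p = 0.0202).

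Of the listed interferon-stimulated genes 64 were tested, and 41 were higher and 2 lower in males (67.2% called). Of all 17671 genes 4209 were called higher and 4111 lower (47.1% called). The median of the list was 0.365 against an all-gene median of 0.00536. A gene high in males alone could pass the filter on low counts through them: 60 listed genes were tested within males and 54 within females. Of the 54 that also passed within females 34 were higher and 2 lower in males, with a median of 0.312. Of the 53 with a mean of at least 10 counts 35 were higher and 2 lower (median 0.331). Among these the largest log2 fold changes were those of Iigp1, an immunity-related GTPase (1.09), Mndal (1.04), the antiviral GTPase Mx2 (0.96), Sp100 (0.95) and the guanylate-binding protein Gbp4 (0.92), and Ifit1, a relative of Ifit3, was at 0.60. The others of this group that were higher were Ifi203, Gbp5, Ifi47, Uba7, Xaf1, Slfn5, Gbp2, Trim30a, Oasl2, Gbp3, Ifi44, Parp14, Dhx58, Ddx58, Rtp4, Samhd1, Trim25, Ifitm3, Lgals9, Gbp7, Ifitm1, Parp9, Ifitm2, Ifih1, Herc6, Parp12, Irgm2, Tor3a and Ly6e. The 6 others that were higher, Zbp1, Phf11d, Oas1b, Oas1a, Oas2 and Gbp6, had a mean under 10 counts, too low for a reliable size. Adar and Cd47 were lower, both at -0.11. Several are families of near-identical copies (Gbp, Oas, Ifi200 and Ifitm genes), so their single values are uncertain.

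Along the pathway, Tyk2 (0.19), Jak2 (0.08), Irf2 (0.09), Irf3 (0.27) and Pias1 (0.07) were higher in males and Socs1, a feedback inhibitor of JAKs (-0.43), Ptpn11 (-0.15) and Ifngr2 (-0.08) were lower. For class I loading, Nlrc5, the class I transactivator (0.59), the peptide transporter subunits Tap1 (0.46) and Tap2 (0.16), Tapbp (0.20) and Canx (0.17) were higher, and Tapbpl (-0.19) and Psmb10 (-0.10) were lower, 7 of 14 tested (50%). The class I genes H2-T10 (0.76), H2-T24 (0.47) and H2-Q4 (0.42) were higher, 3 of 12 tested (25%), as were the sensors Tlr3 (0.37), Tmem173 (0.28) and Trim56 (0.13), 3 of 11 tested (27.3%). Against the background of 47.1%, these shares are near it or below it, and the signalling genes above are given as single values. Of the 6 class II genes tested 0 were called by edgeR, and 0 had an unadjusted p under 0.05.

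Marker lists of cell types also differed between the sexes, not all in the same direction. All 14 endothelial and pericyte markers were higher in males (median 0.632), with summed group means of 459 to 523 CPM in male groups and 295 to 327 CPM in female groups, and no marker was at 0 in all libraries. Of the 14 microglial markers 8 were higher and 1 lower, with sums of 559 to 602 CPM in male groups and 523 to 558 CPM in female groups. Oligodendrocyte markers summed to 1020 to 1240 CPM in male groups and 927 to 1040 CPM in female groups. Astrocyte markers ran the other way, with 4000 to 4520 CPM in male groups and 4460 to 4780 CPM in female groups. Lymphocyte markers were near 0 in both sexes. The part of these cells, of the abundant unnamed ID and of the cohort in the differences between the sexes was not tested.

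**Figure D3:**
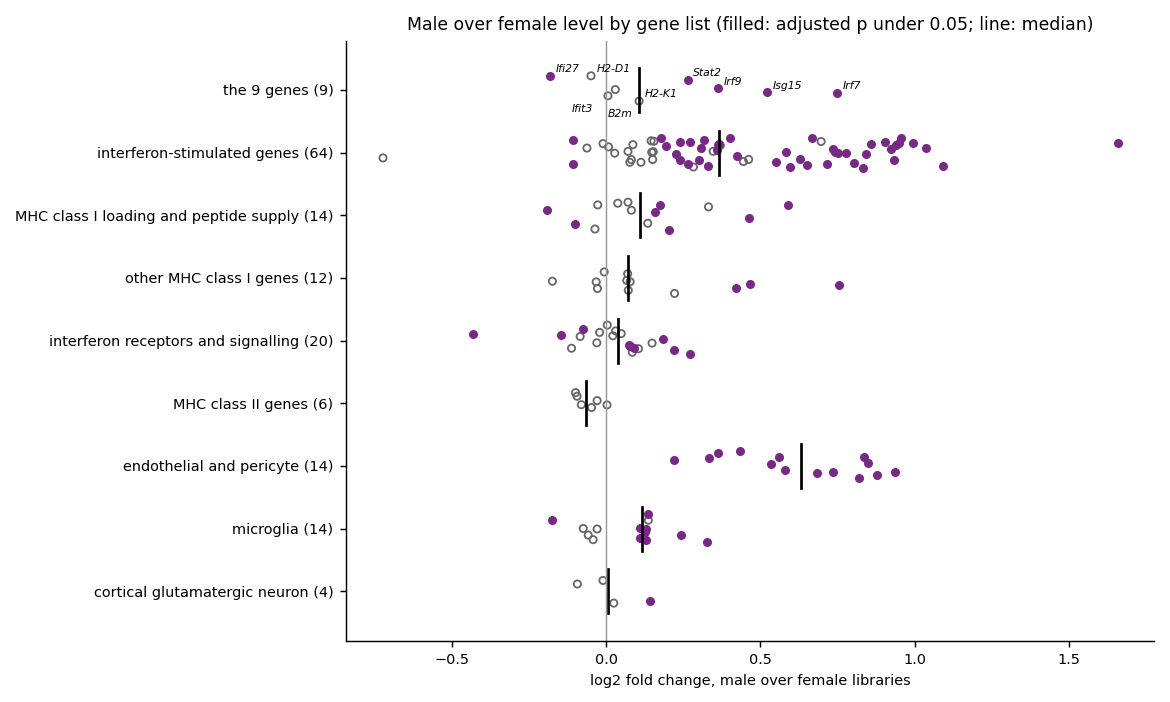
Log2 fold change of male over female libraries for each tested gene of the 9, of 5 related lists and of 3 marker lists (number tested in brackets); filled points had an adjusted p under 0.05 and the bar is the list's median. Endothelial and pericyte markers all lie above 0, as do 59 of 64 interferon-stimulated genes, while class II genes lie near 0.

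Within a group, animals differed in ways that tied some of the 9 genes together. Each gene's log2(CPM + 0.5) was taken as a deviation from its group mean, which removes sex, genotype and stress, and pairs were correlated over the 38 libraries with 100000 permutations within groups (two-sided). Of 36 pairs 4 had an adjusted p under 0.05, all positive, and the median r of all pairs was 0.23. Isg15 and Irf7 had r = 0.65 (Spearman's rho 0.65, p = 0.00018, adjusted p = 0.00324), with 0.71 in males and 0.57 in females. H2-D1 and H2-K1 had r = 0.62 (rho 0.62, p = 0.00013, adjusted p = 0.00324), with 0.70 in males and 0.59 in females. Stat2 and Irf9, the partners of 1 complex, had r = 0.58 (rho 0.57, p = 0.00062, adjusted p = 0.00744), with 0.58 in males and 0.64 in females.

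H2-K1 and Ifit3 had r = 0.55 (rho 0.53, p = 0.00135, adjusted p = 0.0121), but 0.26 in males and 0.75 in females. Without the 2 libraries farthest from the median on the x axis the values were 0.65 for Isg15 and Irf7, 0.55 for H2-D1 and H2-K1, 0.48 for Stat2 and Irf9 and 0.45 for H2-K1 and Ifit3. All 4 kept an adjusted p under 0.05 in each of the 38 runs that left out 1 library. With the class I genes the r of Stat2 and Irf9 lay between -0.21 and 0.05, and with Isg15 it was 0.24 for Stat2 and 0.23 for Irf9, at the median of all pairs.

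**Figure D4:**
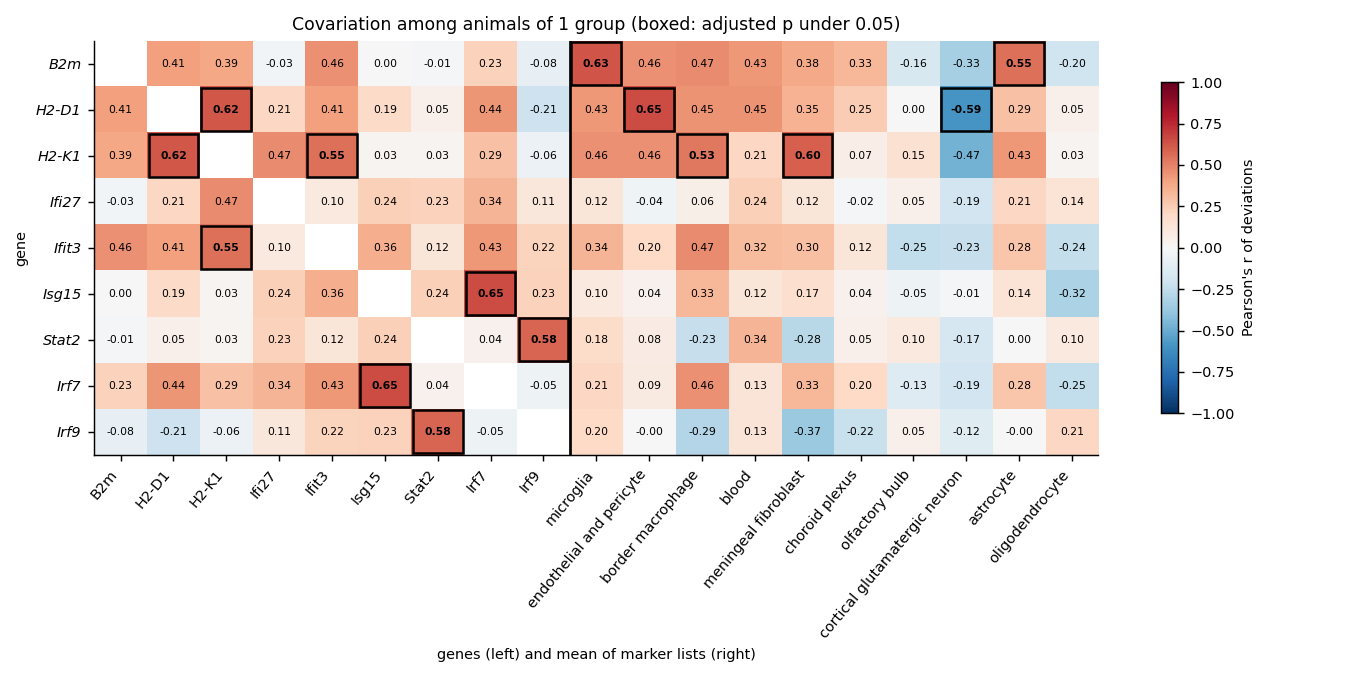
Pearson's r of deviations from the group mean over 38 libraries, for each of the 9 genes (rows) with the other 8 (left columns) and with the mean of each marker list (right columns); boxes mark an adjusted p under 0.05 within each family. Boxed pairs of genes are Isg15 with Irf7, H2-D1 with H2-K1, Stat2 with Irf9 and H2-K1 with Ifit3, and the 6 boxes in the marker columns belong to B2m, H2-D1 and H2-K1.

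The class I genes varied with markers of non-neuronal cells. Of 90 pairs of a gene and a marker list 6 had an adjusted p under 0.05. B2m followed the microglial markers (r = 0.63, rho 0.60, p = 0.00014, adjusted p = 0.009) and the astrocyte markers (r = 0.55, rho 0.52, p = 0.00089, adjusted p = 0.02). H2-D1 followed the endothelial and pericyte markers (r = 0.65, rho 0.52, p = 0.00139, adjusted p = 0.025) and ran against the cortical glutamatergic markers (r = -0.59, rho -0.61, p = 0.0003, adjusted p = 0.009). H2-K1 followed meningeal fibroblast markers (r = 0.60, rho 0.63, p = 0.00023, adjusted p = 0.009) and border macrophage markers (r = 0.53, rho 0.58, p = 0.00225, adjusted p = 0.0337).

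Without the 2 farthest libraries r was 0.57 for B2m with microglia, 0.44 for B2m with astrocytes, 0.44 for H2-D1 with endothelial cells, -0.58 for H2-D1 with glutamatergic neurons, 0.57 for H2-K1 with meningeal fibroblasts and 0.52 for H2-K1 with border macrophages. In males the same r values were 0.49, 0.37, 0.42, -0.65, 0.58 and 0.53, and in females 0.71, 0.78, 0.73, -0.58, 0.64 and 0.54. The 3 pairs that lost their adjusted p under 0.05 when single libraries were left out were B2m with astrocytes and H2-D1 with endothelial cells, each kept in 35 of 38 runs, and H2-K1 with border macrophages, kept in 27.

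**Figure D5:**
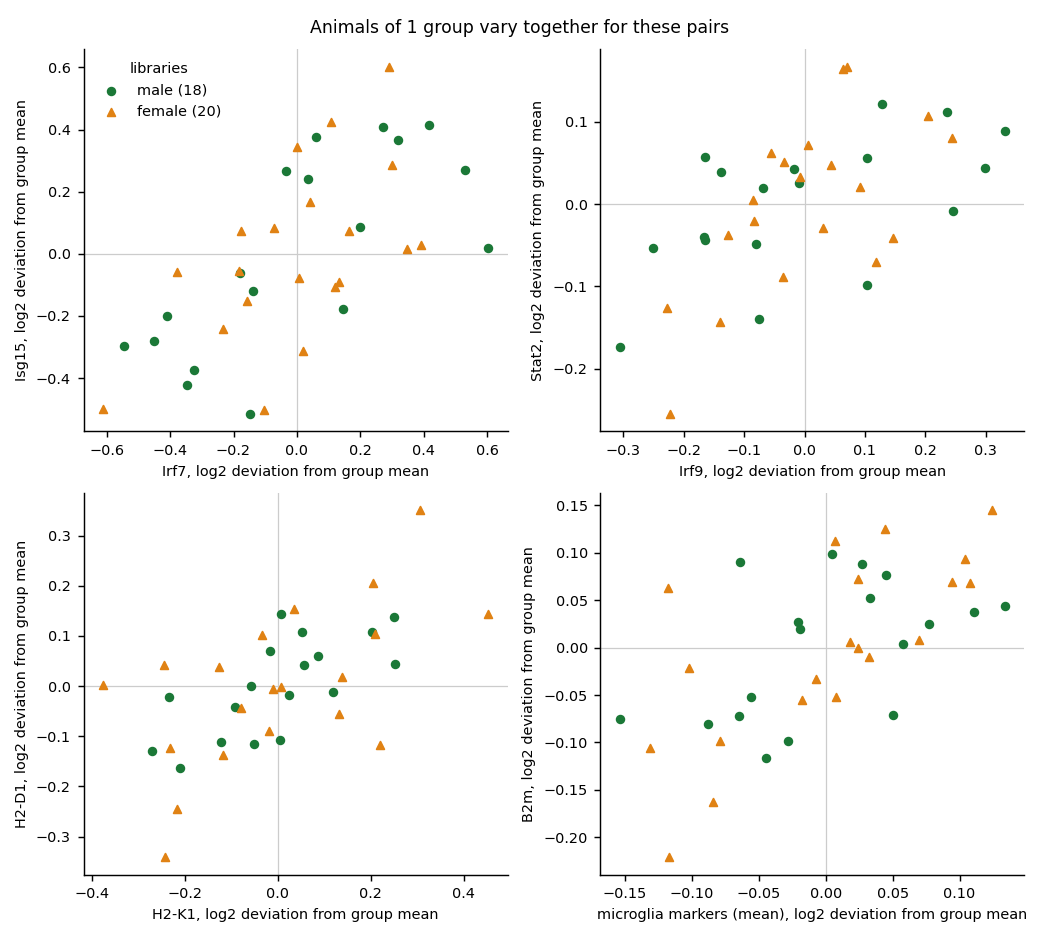
Deviations from the group mean (log2) of Isg15 against Irf7, Stat2 against Irf9, H2-D1 against H2-K1 and B2m against the mean of 14 microglial markers, 1 point per library (18 male, 20 female). Points of both sexes rise together in each panel, with r between 0.58 and 0.65 over the 38 libraries.

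The genes most like each of the 9 over the 38 libraries, by r of the same deviations, differed from gene to gene and are given as a description. For H2-D1 they were Itm2a (0.81), Ly6a (0.78) and Pltp (0.75), and for B2m Ndrg2 (0.70), Ddn (0.68) and Axl (0.68). For H2-K1 they were Agtrap (0.78), Txnip (0.75) and Lamb2 (0.74). For Ifi27 they were Pvr, Cfdp1 (both 0.68) and Blcap (0.63), and for Ifit3 Laptm4a (0.68), Fkbp10 (0.66) and Grn (0.63). For Isg15 they were 0610040F04Rik, Fam131a and Cep89 (each 0.61), and for Stat2 Cdc25b (0.73), Ivd (0.70) and Tmem269 (0.66). For Irf7 they were Mettl9 (0.67), Bst2 (0.62) and Pros1 (0.61), and for Irf9 Zfp560 (0.67), Tpmt (0.63) and Mxd4 (0.60). Of these 27 genes Bst2 alone, an antiviral tether of virus particles, was on the list of interferon-stimulated genes.

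Against the mean of 53 listed interferon-stimulated genes the 9 split into groups, again as a description over 38 libraries. H2-D1 and H2-K1 (r = 0.71 each), Ifit3 (0.70), Irf7 (0.62) and B2m (0.55) varied with it. Isg15 (0.36) and Ifi27 (0.21) did so weakly, and Stat2 (0.05) and Irf9 (0.04) hardly at all. In males r was 0.81 for Irf7 and 0.54 for Isg15, and in females 0.39 for Irf7 and 0.16 for Isg15.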

How the data were processed

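The authors deposited 1 table of raw counts per gene ID for the 38 libraries, with no normalization. Per the submitters' processing notes, fastp 0.23.2, STAR 2.7.10b and featureCounts were used with the build GRCm39, with the annotation release and strand setting not given in the sources used here. Per the labels' protocols, the libraries came from a directional mRNA kit and were read as 150-base read pairs. Symbols, exon lengths and overlaps came from GENCODE vM21 (GRCm38) by gene ID.

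CPM used library sizes with TMM factors of all 38 libraries. The edgeR 4.0.16 quasi-likelihood test (R 4.3.3, 17212 genes in males, 16435 in females and 17671 over all libraries after filterByExpr with a minimum count of 10) was fitted on all groups of a sex, or on all 8 groups for pooled comparisons, with no covariate. Adjusted p-values are Benjamini-Hochberg over all genes tested, two-sided, with a threshold of 0.05. The fit was tested on simulated data with 200 changed genes. The alternatives were RLE size factors, no filter, DESeq2 1.42.0, limma 3.58.1 voom, the groups compared alone, the most abundant ID left out, 1 surrogate variable (sva 3.50.0), the 3 libraries with high Cdhr1 left out, and each library left out. Depth, 17.64 to 27.51 Mcounts, limits Isg15 and Irf7 most.

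The 9 genes and the lists were chosen with earlier results of these data known, so no count over them is independent support. The genes named from a list are those past the threshold and otherwise the 2 with the smallest p, and like genes are the 3 with the highest r. No pair of replicates held identical values. The gene of the conditional allele is not reported here.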

Additional observations from a re-analysis of the deposited data

Results flagged for a closer look

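Among 63 sets of 4 to 6 values (1 gene in 1 group) 2 held a sample far from the others, and chance gives about 1 in 20. H2-K1 was 25.1 CPM in female mutant NS replicate 1, with the nearest of the other 4 mice at 18.1 CPM. Ifit3 was 5.47 CPM in male control NS replicate 3, with the nearest of the other 4 at 8.0 CPM. What sets these 2 libraries apart was not tested.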

How the results depend on the processing

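In the 15 comparisons of stress, genotype, interaction and sex differences, 0 of 9 genes passed the threshold under any alternative, with a lowest adjusted p of 0.172 over 972 values and 0.214 over 2214 values with 1 library left out. The sign turned in 33 of the 972 values (main log2 fold changes up to 0.20 in size) and in 180 of the 2214 (up to 0.19). Over 45 settings the male over female log2 fold change stayed within 0.69 to 0.82 for Irf7, 0.48 to 0.59 for Isg15, 0.33 to 0.38 for Irf9, 0.25 to 0.28 for Stat2 and -0.20 to -0.15 for Ifi27, all past the threshold. Of 36 pairs of genes 4 passed; 8 did with Spearman's rho, 1 within females, and 4 to 7 with 1 library left out. No paired analysis was possible because the labels name animals and give groups no shared replicate numbers. Counts over all genes moved by more than 1.5 times in several comparisons; the cause was not tested. With DESeq2 they were 23 against 2 (stress in male controls), 5 against 3 and 27 against 9 (genotype without and under stress in males), 28 and 27 against 0 (stress in female controls and mutants), 88 against 21 and 14 against 4 (genotype without and under stress in females), 35 against 3 (pooled stress) and 299 against 193 (pooled genotype). With no filter the same first 7 were 15, 11, 43, 51, 36, 118 and 23, pooled stress 6 and the interaction in females 5 against 0. With limma voom stress in male controls and genotype without stress in males were 0. With 1 surrogate variable pooled stress was 1. Without the 3 libraries with high Cdhr1 pooled genotype was 93, pooled stress 36, stress in male mutants 8, the interaction in males 7, genotype in males 11 without and 5 under stress, and the sex differences in mutants and of genotype 5 each. With only the groups compared, stress called 4 in male controls, 6 in male mutants, 2 in female controls and 5 in female mutants. Leaving out 1 library gave 101 to 233 for pooled genotype, 0 to 16 for pooled stress, 6 to 47 for genotype without stress and 2 to 5 under stress in females, 0 to 6 and 1 to 12 in males, 0 to 3 for stress in male controls, and 0 to 9 and 0 to 12 for stress in female controls and mutants.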
